A study of Homo sapiens with 9 samples.

Results

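Nucleolar ribosome biogenesis factors are the proteins that modify, cut and fold ribosomal RNA and build it into ribosomal subunits. They were chosen here as a list of 37 genes by name, with no measured value in the rule. Earlier results of these data were known when the list was chosen. In the deposited array data 31 of the 37 had at least 1 probe set that carried their symbol alone, 63 probe sets in all, out of 54675 probe sets and 19775 named genes on the arrays. For NOP56, DKC1, BOP1 and PPAN the 8 probe sets found carried several symbols, and these 4 genes are not described. GNL3 and EBNA1BP2 were not analysed here.

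The arrays hold RNA of the established human B-lymphocyte line P493-6. By their labels 4 arrays had high Myc expression, 3 low Myc expression and 2 no Myc expression. The labels name no treatment, dose or time, and no culture from which a replicate came, so the p-values reflect the spread from array to array alone, which may be technical. As background, the line is known for a MYC gene that tetracycline represses and for a form of the viral factor EBNA2 that depends on estrogen, both carried in every group, and it is 1 line. The study's title speaks of ectopic Myc, and the design compares the 3 levels. The labels do not say whether the groups also differed in tetracycline or estrogen. Such a difference could not be told apart from the Myc level here.

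Ribosome assembly starts in the nucleolus, where RNA polymerase I makes a long precursor RNA. Small nucleolar RNA-protein particles then guide its chemical modification, box C/D particles for methylation of the ribose and box H/ACA particles for pseudouridine. Large sets of assembly factors cut and fold the precursor into a small and a large subunit. MYC is a transcription factor that binds DNA with MAX, and its preferred site is the E-box CACGTG. Genes of ribosome assembly are among its best known targets in growing lymphoid cells.

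The promoter sequences of these genes are shown because they hold that site often. RefSeq windows (build GRCh38.p14) of 300 bases, from 250 before to 50 after the gene's start, were matched for 26 of the 31 genes. The word CACGTG, which reads the same on both strands, was in 13 of these 26 windows (50%). It was in 2030 of all 27305 windows of that length (7.43%), and in 1369 of the 15384 windows of genes named on the arrays (8.90%). In the stretch from base -70 to base 30 around the start it was present for 11 of the 26 genes (42.3%) and in 3.32% of all windows. The related word CACGCG, with its reverse complement CGCGTG, was in 7 of the 26 windows (26.9%) and in 11.4% of all windows. A GC-box word, GGGCGG or CCGCCC, was in 18 of the 26 (69.2%, all windows 44.6%), and CCGGAA or TTCCGG, the core of sites of ETS factors, was in 15 of the 26 (57.7%, all windows 17.6%). Matches of different words may share bases, and a match is a description of the letters, not a bound site.

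The stretches below run 5′ to 3′ from base -70 to base 30 and are aligned on the start. Shown are the 5 genes with the largest high Myc rise among those with the word in the stretch, then NOP10, the gene with the smallest rise that was called, and LYAR, the gene with the largest rise. Capitals mark CACGTG.
MRTO4, chr1:19251735-19251834, plus strand: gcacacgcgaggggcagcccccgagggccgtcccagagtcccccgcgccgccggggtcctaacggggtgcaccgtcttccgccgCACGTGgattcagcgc
PNO1, chr2:68157818-68157917, plus strand: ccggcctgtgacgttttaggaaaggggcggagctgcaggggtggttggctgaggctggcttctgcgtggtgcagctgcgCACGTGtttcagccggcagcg
WDR43, chr2:28894597-28894696, plus strand: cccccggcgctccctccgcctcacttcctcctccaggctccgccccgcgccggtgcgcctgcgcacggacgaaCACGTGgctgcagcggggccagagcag
RRP9, chr3:51941875-51941974, minus strand: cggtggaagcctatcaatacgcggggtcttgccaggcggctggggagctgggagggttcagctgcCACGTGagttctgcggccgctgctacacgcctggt
FBL, chr19:39846350-39846449, minus strand: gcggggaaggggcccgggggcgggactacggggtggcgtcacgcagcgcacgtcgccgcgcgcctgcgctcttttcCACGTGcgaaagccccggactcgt
NOP10, chr15:34343107-34343206, minus strand: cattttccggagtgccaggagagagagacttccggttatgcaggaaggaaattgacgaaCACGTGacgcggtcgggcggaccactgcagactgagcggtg
LYAR, chr4:4290125-4290224, minus strand: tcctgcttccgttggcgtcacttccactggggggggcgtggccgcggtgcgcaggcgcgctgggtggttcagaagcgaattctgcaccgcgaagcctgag
The word began at base 15 for MRTO4, 10 for PNO1, 4 for WDR43, 7 for FBL, -5 for RRP9 and -11 for NOP10, and the stretch of LYAR did not hold it. Among the 26 genes, the median log2 difference between high and no Myc was 1.93 for the 13 with the word in their window and 1.95 for the 13 without it. NOP10 and IMP4 each held 2 such words in their windows.

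Before the results, 1 array stood against its label, and it is also called a library below. The MYC intensity on the array labelled no Myc replicate 1 was 2803, higher than on any low Myc array, and 416 on no Myc replicate 2. It was 2126, 2526 and 1443 on low Myc replicates 1, 2 and 3 and 11326 to 15404 on the high Myc arrays. In the limma fit over all 54675 probe sets MYC was called higher in high than in no Myc (log2 3.57 ± 0.61, adjusted p = 0.00448). It was not called in low against no Myc (0.87 ± 0.65, adjusted p = 0.538). Nor was it called in high against low Myc (2.70 ± 0.54, adjusted p = 0.0525). Array medians were 75.3 to 80.3 (linear intensity), and correlations between arrays were 0.976 to 0.992 within groups. All 6 measured B-cell markers were read at 83.2 or more on every array (CD79A, CD79B, MS4A1, PAX5, CD22 and BLK, up to 10885) and all 6 were called lower in the high Myc group than in the no Myc group (median log2 difference -1.41). In low against no Myc 4 of the 6 were called lower (MS4A1, CD79A, CD79B and PAX5; median of the 6 -1.39), and CD22 was called lower in high than in low Myc (-0.77 ± 0.17, adjusted p = 0.0448). The 4 measured myeloid markers stayed at 57.5 or less, T-cell markers at 243 or less and epithelial markers at 507 or less. Of these, CD2 was lower in high than in no Myc (-0.90 ± 0.27, limma adjusted p = 0.0431) and CDH1 higher in low than in no Myc (3.22 ± 0.75, adjusted p = 0.0154). The log2 gap between GAPDH probe sets at the 3′ and the 5′ end was 0.25 and 0.42 in the no Myc group and 0.01 to 0.24 elsewhere. For ACTB it was 0.0039 and -0.011 in the no Myc group, -0.049 to 0.19 in high Myc and -0.074 to 0.022 in low Myc. The part of these differences in the results below was not tested.

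Nearly the whole set was higher in high Myc cells than in the no Myc group. In the limma fit over all 19775 genes, with p-values adjusted by Benjamini-Hochberg and a call at an adjusted p under 0.05, 30 of the 31 genes were called higher and 0 lower. Over all genes 14.2% were called higher and 9.0% lower. The median log2 difference of the 31 genes was 1.93, against -0.01 over all genes, and 28 of them differed by 2-fold or more and 13 by 4-fold or more. All 4 high Myc arrays lay above both no Myc arrays for 30 of the 31 genes, which held for 20.6% of all genes. When the library labelled no Myc replicate 1 was left out, 29 of these 30 were called (median 1.79). Leaving out no Myc replicate 2 also gave 29 (median 1.95). The call lost was that of NOP10 in both cases. In RNA of a whole culture, fewer cells that express a gene and less of its RNA per cell cannot be told apart.

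The set was also mostly higher in low Myc than in no Myc cells. Between low and no Myc, 29 of the 31 genes were called higher and 0 lower (all genes: 11.3% higher, 8.55% lower), with a median log2 difference of 1.47. The exceptions were NOP10 (0.50 ± 0.16, adjusted p = 0.0537) and WDR74 (0.17 ± 0.26, adjusted p = 0.804). For 30 of the 31 genes all 3 low Myc arrays lay above both no Myc arrays (all genes: 20.0%). This count of calls was 20 when the library labelled no Myc replicate 1 was left out, with a median of 1.25, and RRP9, NHP2, NCL, RRP12, RCL1, NOB1, NOP2, PES1 and LYAR were not called. Without no Myc replicate 2 it was 25, and UTP20, NOP2, PES1 and NIP7 were not called. Each of these fits rested the no Myc group on 1 array that was assumed to vary like the other groups.

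Between high and low Myc no gene of the set passed the threshold. The median log2 difference was 0.47, the range 0.12 (NOP10) to 0.77 (GAR1), and all 31 means were higher in high Myc. In limma 0 of 31 were called, while 2.33% of all genes were called higher and 1.27% lower, and the lowest adjusted p was 0.0764 (NHP2). At an unadjusted p under 0.05, 17 of the 31 were higher and 0 lower, against 10.0% of all genes higher. All high Myc arrays lay above all low Myc arrays for 9 genes of the set, FBL, NOP58, NHP2, NOLC1, HEATR1, RCL1, BYSL, PNO1 and WDR12, and for 8.06% of all genes. Leaving out low Myc replicate 2, 5 genes were called (GAR1, NHP2, NOLC1, PNO1 and NOB1), with a median of 0.61. With arrays weighted by their quality, 8 were called (FBL, GAR1, NHP2, NOLC1, RRP12, IMP4, PNO1 and NOB1). A difference that misses the threshold does not show that the groups were alike. The shared sign is not separate support for a difference, because the genes were read on the same arrays and moved together on them. On leaving out low Myc replicate 3 the median was 0.31 and NOP10 lay at -0.039.

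**Figure D1:**
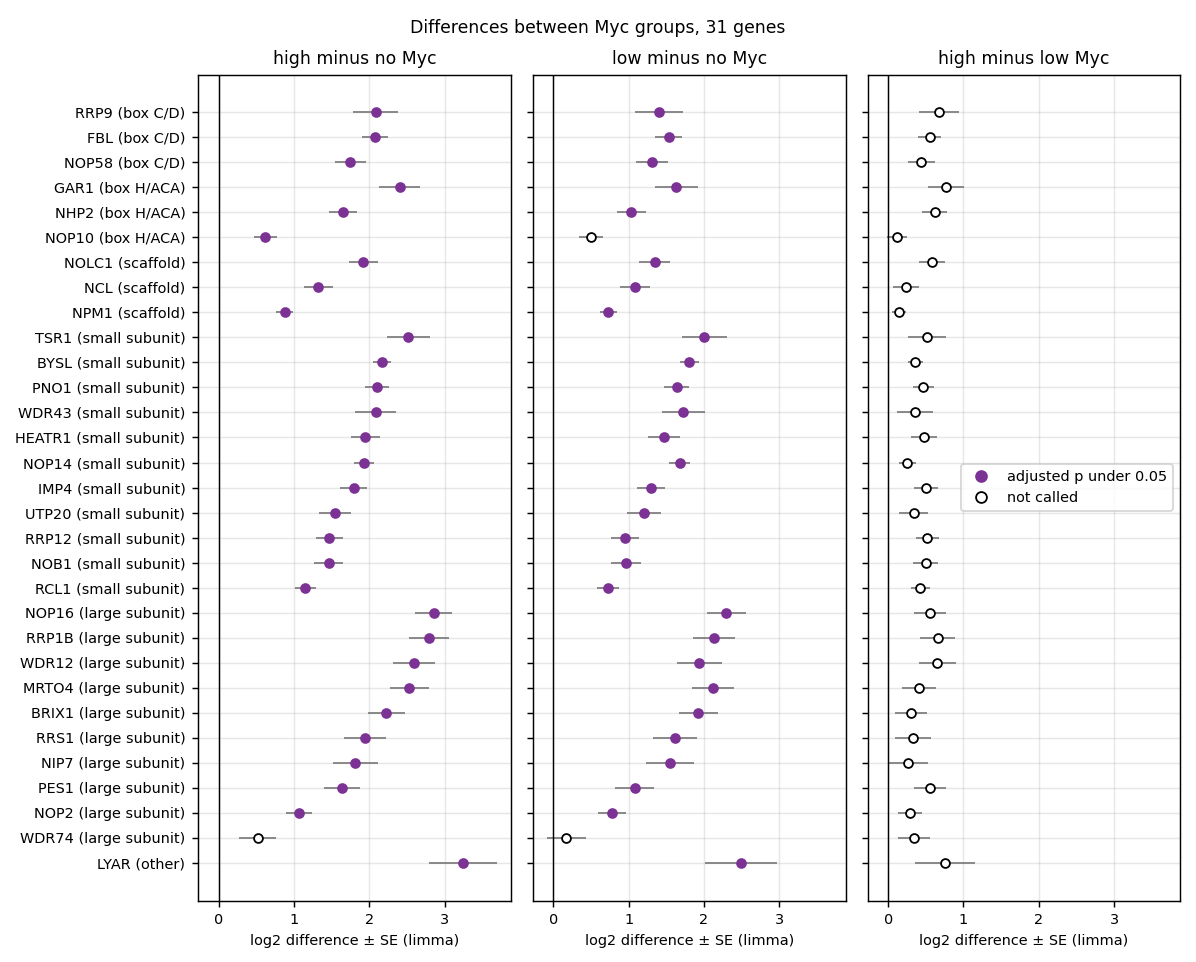
Log2 difference ± SE from the limma fit for each of the 31 genes (rows, grouped by role) between high and no Myc, low and no Myc, and high and low Myc. Filled points passed an adjusted p under 0.05: 30 genes in the first panel, 29 in the second and 0 in the third.

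The box C/D proteins rose together. FBL, fibrillarin, is the enzyme that methylates ribose in ribosomal RNA. Its intensity was 6556, 6427, 6854 and 6995 on the 4 high Myc arrays, 4754, 5220 and 3849 on the low Myc arrays and 1294 and 1940 on the no Myc arrays. The 3 groups did not overlap, and high Myc (mean log2 12.71 ± 0.06, SD, n = 4) exceeded no Myc (10.63 ± 0.41, SD, n = 2) by 4.23-fold (log2 2.08 ± 0.17, SE, adjusted p = 0.000137). NOP58, a core scaffold of the same particles, read 2920 to 3678 in high Myc, 1756 to 2919 in low Myc and 906 and 1062 in no Myc, a 3.36-fold rise from no to high Myc (adjusted p = 0.000433). RRP9 belongs to the box C/D particle that directs early cuts of the precursor. It read 666, 1335, 1254 and 1141 in high Myc, 604, 902 and 534 in low Myc and 221 and 284 in no Myc. High Myc replicate 1 was the lowest array of its group and lay below low Myc replicate 2, and the rise over no Myc was 4.24-fold (adjusted p = 0.00116).

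The 3 measured box H/ACA proteins, which surround the pseudouridine synthase DKC1, differed in how far they rose. GAR1, a structural subunit, read 1220, 1598, 1858 and 1435 in high Myc, 890, 1286 and 603 in low Myc and 286 and 284 in no Myc, and was higher in high than in no Myc by 5.29-fold (log2 2.40 ± 0.27, adjusted p = 0.000383). Low Myc replicate 2 lay above the lowest high Myc array, and the no Myc arrays lay below all others. NHP2 read 5439 to 6936 in high Myc, 3145 to 4919 in low Myc and 1792 and 2188 in no Myc, with no overlap between groups and a 3.14-fold rise. NOP10, the smallest of these proteins, read 3393, 3869, 3541 and 3429 in high Myc, 3440, 3873 and 2623 in low Myc and 2342 and 2281 in no Myc. Low Myc replicates 1 and 2 lay at the level of the high Myc arrays, and low Myc replicate 3 lay below them. High Myc exceeded no Myc by 1.54-fold for NOP10 (log2 0.62 ± 0.15, adjusted p = 0.0142), and this call was lost without either no Myc array (adjusted p up to 0.0886).

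The 3 scaffold and chaperone proteins of the nucleolus were all called higher, with a median log2 difference of 1.33. NCL, nucleolin, binds precursor RNA and read 7338, 8138, 9340 and 7338 in high Myc, 6880, 8640 and 5230 in low Myc and 2991 and 3407 in no Myc, 2.51-fold higher in high than in no Myc (log2 1.33 ± 0.19, adjusted p = 0.00114). Low Myc replicate 2 lay among the high Myc arrays. NPM1, nucleophosmin, a chaperone of the granular zone, read 10675 to 11840 in high Myc, 9326 to 10760 in low Myc and 5522 and 6680 in no Myc, a 1.84-fold rise (adjusted p = 0.000613). The size for NPM1 depended on the probe set: the less bright ones gave 2.56-fold and, at 5709 to 7302 in high Myc, 3.94-fold. NOLC1, a partner of both kinds of particle, read 4298 to 5362, 2488 to 4157 and 1157 to 1385 in high, low and no Myc, with no overlap and a 3.79-fold rise (adjusted p = 0.000246).

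All 11 measured small subunit factors were called higher in high Myc and in low Myc than in no Myc, with medians of 1.93 and 1.47. BYSL, a factor that travels with the small subunit precursor, had the lowest adjusted p of the set. It read 700, 858, 869 and 795 in high Myc, 667, 640 and 570 in low Myc and 181 and 176 in no Myc. The groups did not overlap, and high Myc exceeded no Myc by 4.49-fold (log2 2.17 ± 0.12, adjusted p = 5.32e-05). Low Myc exceeded no Myc by 3.49-fold (adjusted p = 0.000189). TSR1, a GTPase-like factor of late maturation, rose most in this class, from 278 and 354 in no Myc to 1413, 1663 and 848 in low Myc and 1495, 2468, 1785 and 1567 in high Myc, which is 5.71-fold (adjusted p = 0.000402). PNO1, which binds the end of the small subunit RNA, read 1675 to 2117, 1072 to 1577 and 416 to 426 in high, low and no Myc (4.29-fold), and NOB1, the endonuclease that makes the last cut there, read 1145 to 1461, 751 to 1179 and 415 to 541 (2.75-fold).

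The scaffold proteins of the first small subunit particle moved alike. WDR43 read 486 to 643 in high Myc, 290 to 593 in low Myc and 116 to 156 in no Myc (4.25-fold between high and no Myc). HEATR1, a large repeat protein, read 1576 to 2045, 930 to 1499 and 454 to 455 (3.86-fold), and NOP14 read 965 to 1198, 859 to 1027 and 261 to 313 (3.81-fold). IMP4, which helps pair the guide RNA with the precursor, was 3.47-fold higher and UTP20 2.92-fold higher. RRP12, which acts in subunit export, was 2.77-fold higher, and RCL1 had the smallest rise of the class at 2.22-fold, from 377 and 438 in no Myc to 794 to 1040 in high Myc. Each of these rises was called, with adjusted p of at most 0.00102.

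Large subunit factors held 4 of the 6 largest rises and the 1 gene that was not called. Of the 10 measured, 9 were called higher in high than in no Myc and 9 in low than in no Myc. NOP16 read 2342, 2754, 3252 and 2635 in high Myc, 1818, 2572 and 1368 in low Myc and 320 and 445 in no Myc, 7.22-fold higher in high than in no Myc (log2 2.85 ± 0.25, adjusted p = 0.000146). The lowest low Myc array of NOP16, at 1368, lay above the higher no Myc array, at 445. RRP1B, a nucleolar partner of chromatin and phosphatase proteins, read 2630, 2580, 2941 and 2295 in high Myc, 1819, 2333 and 1054 in low Myc and 370 and 382 in no Myc (6.92-fold, adjusted p = 0.000207). WDR12, which forms a complex with PES1 and BOP1, read 1712, 1800, 2050 and 1790 in high Myc, 1286, 1639 and 750 in low Myc and 251 and 367 in no Myc, with no overlap and a 6.04-fold rise (adjusted p = 0.000334). Its partner PES1 read 923 to 1380, 596 to 1081 and 344 to 420, a 3.10-fold rise. The other of the 2 PES1 probe sets lay at -0.22 (log2) and was not called.

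MRTO4 holds the place of the stalk protein RPLP0 on the immature subunit. It read 1035, 1331, 1631 and 1262 in high Myc, 966, 1354 and 711 in low Myc and 193 and 260 in no Myc, 5.79-fold higher in high than in no Myc (adjusted p = 0.000284). BRIX1, a factor of early large subunit particles, read 429, 528, 563 and 417 in high Myc, 417, 509 and 278 in low Myc and 121 and 87.4 in no Myc (4.68-fold, adjusted p = 0.000355). For both genes low Myc replicate 2 lay within the high Myc range and the no Myc pair lay well apart. RRS1 was 3.85-fold higher, NIP7 3.52-fold higher and NOP2, a methyltransferase of ribosomal RNA, 2.10-fold higher, each called (adjusted p up to 0.0022). The no Myc arrays of RRS1 differed by more than those of any other gene of the set but LYAR, at 227 in replicate 1 and 416 in replicate 2.

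WDR74 gave different calls by probe set. The brightest of its 3 probe sets read 689, 952, 778 and 905 in high Myc, 487, 770 and 731 in low Myc and 452 and 734 in no Myc, and was not called (log2 0.52 ± 0.25, adjusted p = 0.202). Its no Myc replicate 2 lay above the lowest high Myc array. A second probe set read 797, 867, 939 and 927 in high Myc, 394, 647 and 331 in low Myc and 248 and 238 in no Myc, and high Myc exceeded no Myc by 3.62-fold (log2 1.86 ± 0.23, adjusted p = 0.001 over all probe sets). Which of them reports the WDR74 transcript cannot be told from these values.

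LYAR, a nucleolar zinc-finger protein, had the largest rise of the 31 genes and the widest spread. It read 1046, 1530, 2639 and 1858 in high Myc, 785, 1684 and 741 in low Myc and 125 and 249 in no Myc. High Myc exceeded no Myc by 9.47-fold (log2 3.24 ± 0.45, adjusted p = 0.000921) and low Myc exceeded no Myc by 5.62-fold (log2 2.49 ± 0.47, adjusted p = 0.00602). The call for low Myc was lost when the library labelled no Myc replicate 1 was left out (2.0, adjusted p = 0.0725). Within-group SDs of LYAR were 0.56, 0.66 and 0.70 (log2) in high, low and no Myc, against medians over the set of 0.19, 0.36 and 0.19.

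**Figure D2:**
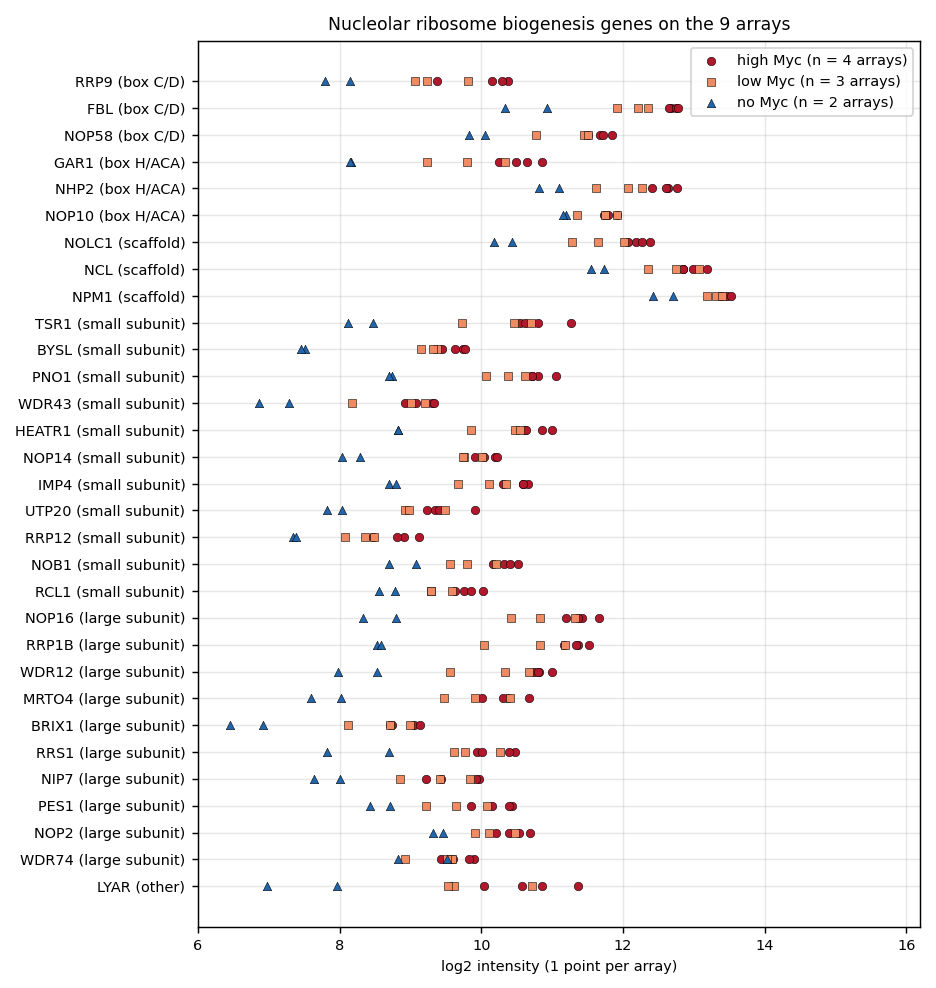
Log2 intensity of each of the 31 genes (rows, grouped by role) on each array, with circles for the 4 high Myc, squares for the 3 low Myc and triangles for the 2 no Myc arrays. The triangles lie to the left of all other points for 30 of the 31 genes, WDR74 being the exception, while circles and squares overlap for 22 genes.

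How much of the distance from no to high Myc was already present in low Myc differed between genes. On the log2 scale the low Myc rise was a median of 76.4% of the high Myc rise, from 33.6% (WDR74) to 86.7% (NOP14), and over 50% for 30 of the 31 genes. Both rises were taken from the same 2 no Myc arrays. The same count over all genes was not computed, so it is not read as particular to the set. After NOP14 the highest were BRIX1 (86.4%) and NIP7 (85.3%), and above WDR74 the lowest were NHP2 (62.6%) and RCL1 (62.9%). Whether the 2 steps differ was tested as low Myc against the midpoint of the other groups. In that limma contrast 6 genes were called above the midpoint, 0 below and 25 neither (all genes: 4.12% above, 5.13% below). They were BYSL (0.72 ± 0.10, adjusted p = 0.0045), NOP14 (0.71 ± 0.11, adjusted p = 0.00757), PNO1 (0.59 ± 0.13, adjusted p = 0.0283), NOP16 (0.87 ± 0.20), BRIX1 (0.81 ± 0.20) and MRTO4 (0.86 ± 0.22), the last 3 with adjusted p of 0.0321 to 0.0428. This count rested on single arrays: it fell to 2 on leaving out any of high Myc replicates 1 and 4, low Myc replicates 1 and 2 and the library labelled no Myc replicate 1. It was 19 on leaving out low Myc replicate 3 and 4 on leaving out no Myc replicate 2.

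The low Myc arrays held a common order. Low Myc replicate 2 was the highest of the 3 for 29 of the 31 genes (32.9% of all genes) and replicate 3 the lowest for 29 (38.4% of all genes), and both with replicate 1 between held for 27 of 31 (22.3% of all genes). MYC itself was in the same order, at 2526, 2126 and 1443. Low Myc replicate 2 reached the range of the high Myc arrays for 22 of the 31 genes, replicate 1 for 4 and replicate 3 for 1. The SD within low Myc exceeded that within high Myc for 28 genes. Shares over all genes were not computed for the range counts or the SD count. These counts therefore describe the arrays and are not read as particular to the set.

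On the array labelled no Myc replicate 1 the set was low although MYC was not. The median of the 31 genes, each set against its own mean over the 9 arrays, was -1.36 on that array and -1.19 on no Myc replicate 2, against 0.15, 0.43 and -0.25 on low Myc replicates 1, 2 and 3 and 0.34 to 0.73 on the high Myc arrays. All 3 low Myc arrays lay above no Myc replicate 1 for 31 of 31 genes, while MYC was higher on no Myc replicate 1 than on any of them. The share of all genes with all 3 low Myc arrays above that array was not computed. Above both no Myc arrays they lay for 30 of the 31 genes and for 20.0% of all genes. Between the no Myc arrays 23 of the 31 genes were lower on replicate 1, the array with the higher MYC signal (48.3% of all genes were lower there). The median gap, replicate 1 minus replicate 2, was -0.23 (log2). It ran from -0.99 for LYAR to 0.46 for BRIX1.

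**Figure D3:**
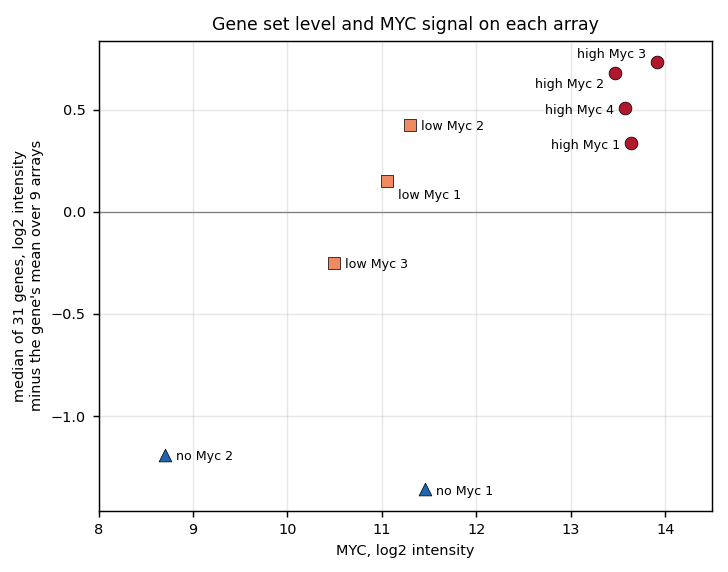
MYC log2 intensity (horizontal axis) and the median of the 31 genes, each as log2 intensity minus its own mean over the 9 arrays (vertical axis), 1 point per array with its label. No Myc replicate 1 has a MYC value near those of the low Myc arrays and a set median of -1.36, the lowest of the 9.

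In the fit over all 54675 probe sets, 50 of the 63 were called higher in high than in no Myc (9.24% of all probe sets) and 1 lower (7.79% of all). In low against no Myc 45 were higher (6.73% of all) and 1 lower (7.66%), and in high against low Myc 1 was higher (1.04% of all), that of RCL1 (log2 0.62 ± 0.11, adjusted p = 0.0316). That single call was lost on leaving out any of high Myc replicates 1, 3 and 4, low Myc replicate 3 and the no Myc pair, and the count was 3 on leaving out low Myc replicate 2. The 45 became 23 when the library labelled no Myc replicate 1 was left out.

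Of the 16 genes with more than 1 probe set, all probe sets were called higher in high Myc for 8, among them NPM1, NOLC1, LYAR, MRTO4 and PNO1. For the other 8, HEATR1, NCL, NOP16, PES1, RCL1, RRP12, TSR1 and WDR74, some were not. In NCL and PES1 1 of 2 was not called, in HEATR1 1 of 5 and in RCL1 1 of 3. The lowest log2 difference was 0.30 for NCL, -0.22 for PES1, 0.11 for HEATR1 and 0.09 for RCL1. The share over all genes was not computed. NOP16 had 2 probe sets at 7.22-fold and 9.67-fold and 2 more, read at 45.4 to 96.7 on every array, at -0.16 and -0.18 (log2), not called. The probe set called lower was of TSR1 and of a type that can bind other transcripts too (suffix _x_at). It read 236 to 308 in high Myc, 186 to 223 in low Myc and 359 and 402 in no Myc (log2 -0.52 ± 0.13, adjusted p = 0.0208), while 2 other TSR1 probe sets were 5.71-fold and 7.0-fold higher. RRP12 had 5 probe sets, of which 3 were read at 98.8 or less and were not called. Taking the median of its probe sets in place of the brightest turned the RRP12 difference to -0.15.

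**Figure D4:**
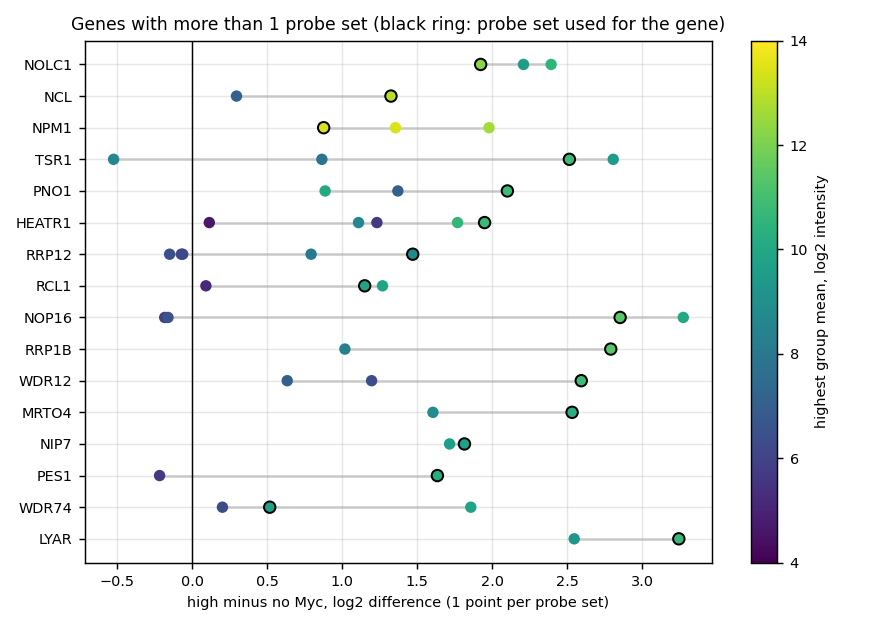
High minus no Myc log2 difference of every probe set (1 point each) for the 16 genes with more than 1, with colour for the highest group mean (log2 intensity) and a black ring on the probe set that stood for the gene. Probe sets of 1 gene differ widely for NOP16, from -0.18 to 3.27, and 1 TSR1 probe set lies at -0.52.

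Most of the other genes of ribosome assembly, listed by name, were also called higher in high than in no Myc. Of 117 measured genes in 4 lists, 97 were called higher, 0 lower and 20 neither (all genes: 14.2% higher, 9.0% lower). Their median log2 difference was 1.26. In low against no Myc 77 were higher, 1 lower and 39 neither (all genes: 11.3% higher, 8.55% lower), with a median of 0.91. The one that was lower was TTF1, a termination factor of RNA polymerase I (-0.63 ± 0.17, adjusted p = 0.0316), named after its value was seen. That call was lost on leaving out any 1 of high Myc replicates 3 and 4, low Myc replicates 2 and 3 and the no Myc pair. The 77 became 33 when the library labelled no Myc replicate 1 was left out, and 50 for no Myc replicate 2. Among other small subunit factors 38 of 42 were higher in high than in no Myc, led by WDR3 (2.39 ± 0.24) and UTP15 (2.28 ± 0.29), both of the first particle. Among other large subunit factors 33 of 39 were higher, led by NPM3, a relative of nucleophosmin (2.62 ± 0.29), and CCDC86 (2.52 ± 0.25).

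Of 21 measured genes of particle assembly and the RNA exosome 16 were higher, led by NAF1, which assembles box H/ACA particles (2.56 ± 0.33), and the ATPase RUVBL1 (2.24 ± 0.20). For transcription by RNA polymerase I 10 of 15 were higher, led by the subunits POLR1B (3.08 ± 0.26) and POLR1G (2.68 ± 0.20). Between high and low Myc 11 of the 117 were called higher and 0 lower (all genes: 2.33% higher, 1.27% lower). POLR1G was among these 11 in the limma fit (0.89 ± 0.17, adjusted p = 0.0309). That count was 2 on leaving out high Myc replicate 3 or 4, and 3 on leaving out high Myc replicate 1 or a no Myc array. It was 4 and 5 on leaving out low Myc replicates 1 and 3, and 18 for low Myc replicate 2. POLR1G kept its call on leaving out replicate 2 of high Myc or replicates 2 or 3 of low Myc, and lost it for each of the other 6 arrays. Of 79 listed cytosolic ribosomal proteins, which these factors assemble with RNA, 53 were measured. Of these 53, 2 were called higher in high than in no Myc, with a median of 0.07 (all genes: 14.2% called higher). All high Myc arrays lay above both no Myc arrays for 28 of the 53 (all genes: 20.6%). The 2 called were RPL14 (0.55 ± 0.10, adjusted p = 0.00422) and RPL3 (0.30 ± 0.10, adjusted p = 0.0499). RPL14 lost its call when the library labelled no Myc replicate 1 was left out (adjusted p = 0.0567), and RPL3 on leaving out any array but no Myc replicate 2.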

How the data were processed

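RNA of 9 P493-6 samples was read on 1-colour Affymetrix arrays of 54675 probe sets. The values are the authors' deposited RMA intensity values on a linear scale, per the submitters' processing notes; the RMA version and settings are not given in the sources used here. Its quantile step makes the distributions of arrays alike, so a change in total RNA per cell is not seen. The number of arrays limits the precision.

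Log2 of each intensity was taken. Names came from the platform annotation, with symbols updated through Entrez identifiers: 41097 had 1 symbol, 1801 several and 11777 none, and 41043 were matched through the identifier. Each gene was represented by the probe set with 1 symbol and the highest mean over all 9 arrays. One linear model over the 3 groups was fitted to 19775 genes with limma 3.58.1 (lmFit, eBayes) in R 4.3.3, with 6 residual degrees of freedom, Benjamini-Hochberg adjustment over all genes and a threshold of 0.05. A further fit covered all probe sets. The fit was tested on simulated data with known changes.

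The genes and lists were chosen with earlier results of these data known. All genes of the set are named, and in each other list the 2 with the largest difference between high and no Myc. Alternatives were array weights, a trended and robust prior, median centring, repeated quantile normalization, a filter at a mean log2 of 5, the median over all probe sets of a gene, fits of only the compared groups, a replicate block, a threshold of 0.01 and leaving out each array. Promoter windows came from RefSeq (GRCh38.p14), and NOP58, NOLC1, RRP12, RRP1B and RRS1 had none.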

Additional observations from a re-analysis of the deposited data

How the results depend on the processing

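The counts of genes of the set called above no Myc stayed within 1.5 times of the main ones under every alternative run, while calls between high and low Myc and the midpoint contrast did not. Leaving out 1 array at a time, genes of the set called higher numbered 29 to 30 (high against no Myc), 20 to 30 (low against no Myc) and 0 to 5 (high against low Myc), and 2 to 19 off the midpoint; 0 were called lower. Their probe sets numbered 43 to 50, 23 to 48 and 0 to 3, the other assembly genes 76 to 98, 33 to 91 and 2 to 18 higher and 0 to 1 lower (low against no Myc), and all genes 2714 to 4868, 1855 to 4381 and 228 to 1204. Between high and low Myc the main values were 712 of all genes, 11 other assembly genes and 1 probe set of the set. With array weights these were 1684, 23 and 2, with 8 genes of the set called and 14 off the midpoint. With only the compared groups they were 406, 3 and 0. Whether the numbers in the labels pair the arrays was not settled. Same-numbered arrays deviated with r of 0.25, 0.45 and 0.47 for replicate 1, 0.030, 0.067 and 0.10 for replicate 2 and -0.31 for replicate 3. With 2 no Myc arrays, each r with no Myc replicate 2 is by construction the negative of that with replicate 1. The main fit took the arrays as unpaired, and with the replicate as a block the values were 154, 1 and 0, with 2 genes off the midpoint. At a threshold of 0.01 they were 143, 1 and 0, with 2 off the midpoint, 47 other genes higher in low than in no Myc, and 3048 (high against no Myc) and 2188 (low against no Myc) of all genes. With the median of probe sets 1 gene of the set (RCL1) and 4 other genes were called between high and low Myc and 3 lay off the midpoint. Median centring left 6 other genes, repeated quantile normalization gave 2 probe sets and 12 off the midpoint, the filter at 5 gave 2 probe sets, and the trended and robust prior gave 0. The lower call of TTF1 was lost (0 genes) with array weights, the median of probe sets, only the compared groups and the threshold of 0.01. Signs turned for WDR74 in low against no Myc, at -0.047 with array weights and at -0.18 in the range -0.18 to 0.52 over arrays left out (lowest without no Myc replicate 1). They turned for RRP12 with the median of probe sets (-0.15, -0.13 and -0.024 in high against no, low against no and high against low Myc), where 3 of its 5 probe sets were not called. Over arrays left out, NOP10 ranged from -0.039 (without low Myc replicate 3) to 0.24 between high and low Myc. Between low and no Myc RPL3 ranged from -0.0096 (without no Myc replicate 1) to 0.22 and MYC from -0.50 (without no Myc replicate 2) to 2.25. Apart from those constructions, the cause was not tested.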
